A study of Homo sapiens with 6 samples.

Results

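Chromatin accessibility was examined at 10 genes of the nuclear lamina, cohesin, the CTCF insulator system and the nuclear matrix in HCT116, a human colon cancer cell line long in culture. The genes were LMNA, LMNB1, LMNB2, LBR, CTCF, RAD21, SAFB, HNRNPU, MATR3 and SATB1. Peaks were taken by place: every ATAC-seq peak that overlapped one of the gene intervals on build hg19, with 10 kb added on both sides, was a member. The genes themselves were chosen with earlier results of these data known. ATAC-seq marks open DNA by the insertion of sequencing adapters by a transposase, and a peak is an interval in which insertions pile up above the local background. Peaks of the 6 libraries that shared at least 1 bp were merged into regions, here called sites. The windows held 33 of the 58926 sites of the genome and 146 of the 212831 peaks of the 6 lists.

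The series compares 3 libraries from HCT116 cells labelled as NuMA-depleted with 3 from cells labelled wild type, and its title asks about local chromatin architecture. NuMA is a nuclear protein that organises the poles of the mitotic spindle and belongs to the nucleoskeleton in interphase. The labels do not say how NuMA was removed, how long before the assay, or whether the cells came from 1 clone, and the peak lists give no measure of NuMA itself. The titles mark the NuMA-depleted libraries AID and the wild-type libraries NC, and the peak names add the word combine, none of which is explained. The protocol states 2 different numbers of cells per sample. Nor do they say whether replicates were grown separately, so each p-value reflects how far these libraries scatter, and that scatter may be technical. It is largely the scatter over all regions tested, since the moderated test used here draws the error of a single site toward that of the others.

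The lists held 21783 to 45892 peaks. NuMA-depleted replicate 3 had the shortest and NuMA-depleted replicate 2 the longest, and the other 4 held 32503 to 38685. Relative depth was estimated from each list's smallest background, recovered from the caller's fold and p-value. This was divided by the width of the narrowest peak (190 to 264 bp), so the estimate rests on the extremes of each list. Set to average 1 over the 6 libraries, it was 1.07 to 1.21 in the NuMA-depleted and 0.762 to 0.975 in the wild-type libraries. For NuMA-depleted replicate 3, with the short list, it was 1.11. That list had the lowest median fold of the 6, 6.08, and a median of 20 fragments at the summit, against 20 to 27 in the others. Whether depth shortened the list was not tested. The number of reads is unknown. Where a library lacks a peak, the signal fell short of the calling threshold, and the DNA may still have been open.

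The lamina is a meshwork of intermediate filaments under the inner nuclear membrane, built of A-type lamins (from LMNA) and B-type lamins (from LMNB1 and LMNB2), and it holds heterochromatin at the nuclear edge, partly through the lamin B receptor LBR. Inside the nucleus, cohesin extrudes chromatin loops that often stop where CTCF is bound to DNA, and RAD21 is the subunit that closes the cohesin ring. SAFB, HNRNPU (also called SAF-A), MATR3 and SATB1 were described as proteins that bind scaffold or matrix attachment DNA or nuclear RNA and remain in biochemical preparations of the nuclear matrix. The promoter of an active gene is usually depleted of nucleosomes and gives an ATAC-seq peak.

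The promoter sequences of 5 of the genes are shown because their 5′ ends cover the calling patterns met below: called in all 6 libraries (CTCF, SAFB, HNRNPU), in all but 1 (LBR) and in 2 (LMNB2). Each runs from 250 bases before to 50 bases after a transcription start of RefSeq on build GRCh38.p14, which differs from the build of the peaks, so the windows were not laid over the peaks. They lie at chr16:67562276-67562575 (CTCF, plus strand), chr19:5622833-5623132 (SAFB, plus strand), chr1:244864494-244864793 (HNRNPU, minus strand), chr1:225428772-225429071 (LBR, minus strand) and chr19:2456910-2457209 (LMNB2, minus strand). Capitals mark matches, on either strand, to the motifs named after the sequences.
CTCF: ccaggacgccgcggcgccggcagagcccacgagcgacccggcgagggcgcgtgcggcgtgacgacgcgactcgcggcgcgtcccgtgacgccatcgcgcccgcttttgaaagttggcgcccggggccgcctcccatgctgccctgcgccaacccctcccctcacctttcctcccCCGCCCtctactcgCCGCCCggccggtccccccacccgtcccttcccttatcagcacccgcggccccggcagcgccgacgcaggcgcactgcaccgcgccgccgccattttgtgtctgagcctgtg
SAFB: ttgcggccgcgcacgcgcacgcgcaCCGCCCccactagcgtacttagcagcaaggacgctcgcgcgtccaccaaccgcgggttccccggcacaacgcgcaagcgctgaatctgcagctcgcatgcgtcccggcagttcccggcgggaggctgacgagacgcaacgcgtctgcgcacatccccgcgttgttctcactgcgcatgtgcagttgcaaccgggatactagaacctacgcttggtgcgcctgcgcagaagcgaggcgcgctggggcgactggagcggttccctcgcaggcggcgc
HNRNPU: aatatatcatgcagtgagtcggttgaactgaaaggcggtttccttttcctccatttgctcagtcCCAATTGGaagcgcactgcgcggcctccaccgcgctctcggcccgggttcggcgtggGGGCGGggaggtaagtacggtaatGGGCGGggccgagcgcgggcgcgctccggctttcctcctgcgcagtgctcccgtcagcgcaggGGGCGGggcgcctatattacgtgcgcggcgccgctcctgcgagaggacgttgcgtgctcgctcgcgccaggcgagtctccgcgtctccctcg
LBR: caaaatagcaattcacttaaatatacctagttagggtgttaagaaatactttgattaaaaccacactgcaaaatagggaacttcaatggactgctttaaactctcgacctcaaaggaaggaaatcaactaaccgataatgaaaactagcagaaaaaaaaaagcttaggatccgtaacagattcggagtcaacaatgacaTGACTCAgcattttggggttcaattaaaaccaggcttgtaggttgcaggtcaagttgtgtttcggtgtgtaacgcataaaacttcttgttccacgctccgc
LMNB2: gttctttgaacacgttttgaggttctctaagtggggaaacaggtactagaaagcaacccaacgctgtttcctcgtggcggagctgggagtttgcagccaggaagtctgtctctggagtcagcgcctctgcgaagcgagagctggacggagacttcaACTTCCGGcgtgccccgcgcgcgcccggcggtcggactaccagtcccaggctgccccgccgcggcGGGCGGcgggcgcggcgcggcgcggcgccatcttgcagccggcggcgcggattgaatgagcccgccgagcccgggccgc

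The capitals in CTCF, SAFB and the 3 later matches of HNRNPU are GC boxes (GGGCGG, the core of the SP1 site), read in CTCF and SAFB on the opposite strand as CCGCCC. In HNRNPU the first capitals are 2 overlapping CCAAT boxes (CCAAT, bound by NF-Y) on opposite strands. LBR held 1 match to the AP-1 motif (TGANTCA), and LMNB2 held 1 match to an ETS motif (CCGGAAGT, on the opposite strand) and 1 GC box. GC content was 75.3% in CTCF, 68.7% in SAFB, 67.7% in LMNB2 and 67.0% in HNRNPU, against a median of 58.7% over all 35116 promoter windows of the table, and 38.3% in LBR. The table held 16 windows for 9 of the 10 genes, and none was printed for RAD21. A GC box stood in 12 of these 16 windows and in 45.0% of all windows, and CCAAT in 5 of 16 and in 34.6%. The ETS motif stood in 1 of 16 and in 4.14% of all windows, and the AP-1 motif in 1 of 16 and in 7.71%. TATAAA (11.5% of all windows), an NRF1 motif (1.24%) and the core of the CTCF motif (0.0655%) had no match in the 16 windows. A match is a string of letters and does not show that a factor was bound.

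Of the 33 sites, 14 were called in all 6 libraries (42.4%), where 28.9% of all sites of the genome were. No site was called in all 3 libraries of one group and in none of the other. Over the genome, 0.625% of sites had that pattern for the NuMA-depleted and 0.592% for the wild-type libraries. Presence in 3 against 3 libraries cannot give an exact p below 0.10, so single sites were not tested on presence. A further 7 sites (21.2%) were missing from NuMA-depleted replicate 3 alone, a pattern of 8.69% of all sites, and 5 were called in a single library (25.1% of all sites). Counting every pattern, 18 of the 33 sites (54.5%) were missing from that library, as were 63.6% of all sites. The sites at 8.7 kb in LMNA and 32.6 kb in LMNB1 were called in NuMA-depleted replicates 1 and 2 and wild-type replicate 1 alone, as were 1.43% of all sites. By library, 27, 30 and 15 of the 33 sites were called in NuMA-depleted replicates 1, 2 and 3, and 26, 23 and 24 in wild-type replicates 1, 2 and 3. The same libraries called 64.3%, 77.6%, 36.4%, 59.0%, 64.2% and 54.3% of all sites of the genome, so NuMA-depleted replicate 3 was lowest and NuMA-depleted replicate 2 highest on both counts.

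**Figure D1:**
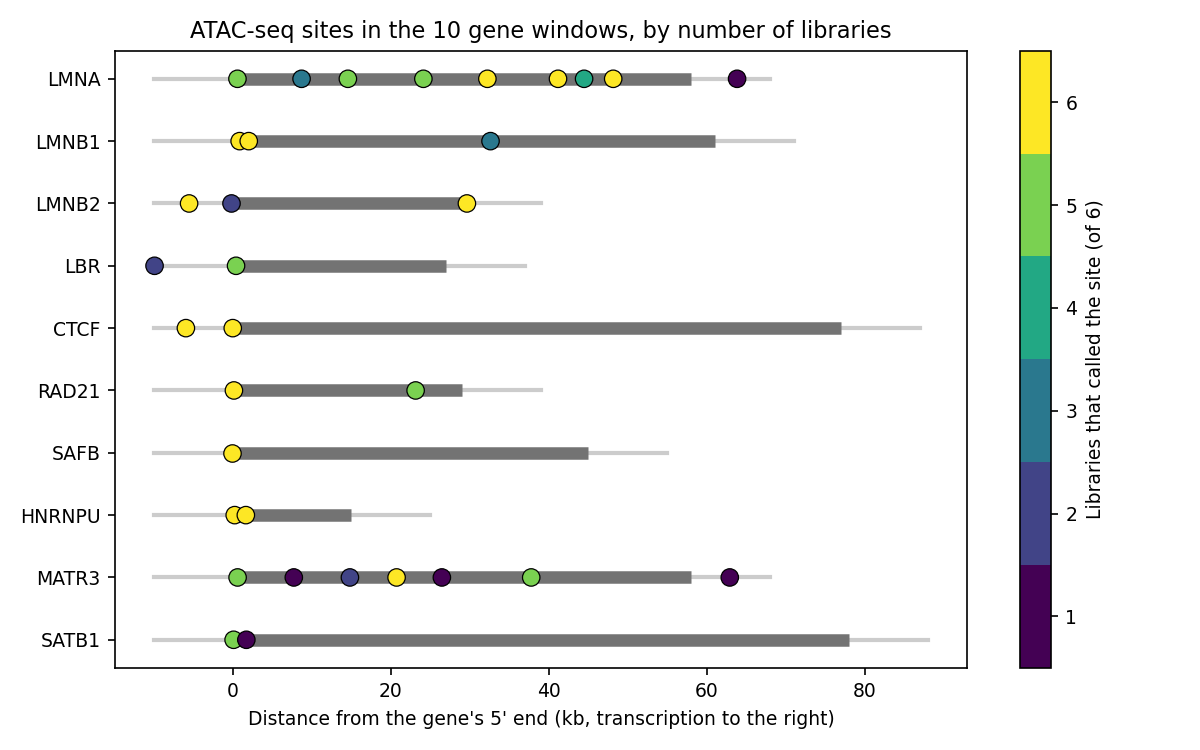
Sites in the 10 gene windows by distance from the gene's 5′ end (horizontal axis, kb, with transcription to the right). Dark bars are the genes, pale bars the added 10 kb, and the colour of a point is the number of libraries that called the site, from 1 to 6. Each of the 10 genes has a site at the 5′ end of its interval, and LMNA and MATR3 have 9 and 7 sites.

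All 10 genes had a site at the 5′ end, taken as a site within 1 kb of the end of the interval, whose coordinates are rounded to 1 kb. Transcript starts away from that end were not placed on the sites, so these calls concern the end of the interval only. At LMNB1, CTCF, RAD21, SAFB and HNRNPU it was called in all 6 libraries, and at LMNA, LBR, MATR3 and SATB1 in all but NuMA-depleted replicate 3. LMNB2 alone among the 10 lacked it in all 3 wild-type libraries. A further 18 sites lay inside the genes or overlapped them, 3 lay upstream and 2 downstream. Those 18 include the site over the 3′ end of LMNB2, whose summits lay 29.1 to 29.4 kb from the 5′ end of a 29 kb interval. By RefSeq, other genes lie next to or over these genes (MEX3A and SEMA4A beside LMNA, LMNB1-DT beside LMNB1, TIMM13, TMPRSS9 and LINC01775 beside LMNB2, DNAH14 beside LBR, CTCF-DT and CARMIL2 beside CTCF, RAD21-AS1 beside RAD21, SAFB2 beside SAFB, COX20 beside HNRNPU, SNHG4 over MATR3, SATB1-AS1 beside SATB1). Their positions were not mapped to the hg19 windows. A site is therefore placed by position and not assigned to a gene's own promoter.

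At LMNA the window held 9 sites, the most of the 10 genes, of which 3 were called in all 6 libraries. The strongest of these 3 lay 32.2 kb from the 5′ end of the interval, on chromosome 1 at 156083714 to 156084723. Whether a transcript of LMNA starts there was not examined. Its fold over the caller's local background, each list's own value, was 8.87, 8.36 and 7.16 in NuMA-depleted replicates 1, 2 and 3 and 6.25, 6.97 and 5.68 in wild-type replicates 1, 2 and 3. Behind these folds stood 48, 65 and 33 fragments at the summit in the NuMA-depleted and 34, 35 and 27 in the wild-type libraries. For 27 fragments the exact 95% Poisson interval, which covers counting error only, runs from 17.8 to 39.3. Fragment numbers also follow the depth of the library, so they are not compared between libraries.

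Ranks were used to set libraries side by side, because each library ranks the same 17009 regions that all 6 libraries called. By −log10 p, the LMNA site at 32.2 kb stood at percentiles 79.6, 79.5 and 79.5 after depletion and 49.5, 43.7 and 27.8 in wild-type cells. Each NuMA-depleted library ranked it above all 3 wild-type libraries, with means of 79.5 ± 0.0561 and 40.3 ± 11.3 (SD, n = 3 each). On the scale of normal scores the difference was 1.08 (SE 0.397, 95% confidence interval 0.288 to 1.87), with an unadjusted p of 0.00811 and an adjusted p of 0.260 by limma over all 17009 regions, so it did not pass the threshold of 0.05. Over the alternatives the adjusted p ranged from 0.260 to 0.528 by limma, and the difference stayed positive in each of them. This site was singled out after its values were seen. Estimated relative depth was also higher in each NuMA-depleted library (1.07 to 1.21) than in the wild-type libraries (0.762 to 0.975). The part of depth in the ranks was not tested.

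The other 2 LMNA sites called in all 6 libraries lay 41.2 and 48.1 kb inside the gene. That at 41.2 kb had percentiles of 28.3, 52.9 and 41.2 in the NuMA-depleted and 13.6, 26.9 and 13.1 in the wild-type libraries, which do not overlap (difference 0.70, SE 0.419, adjusted p = 0.581 by limma). That at 48.1 kb had overlapping percentiles, 32.9, 31.2 and 75.7 against 18.6, 61.3 and 27.8. The site at the 5′ end of the interval, on chromosome 1 at 156052214 to 156052960, had folds of 7.15 and 6.81 in NuMA-depleted replicates 1 and 2 and of 7.19, 5.91 and 4.6 in the wild-type libraries, and no peak in NuMA-depleted replicate 3. The same libraries called the sites at 14.6 and 24.1 kb. The site at 14.6 kb was the strongest of the window by its weakest −log10 q (16.3), with folds from 7.95 to 11.0, and stood above 71.3% of the peaks of each list that called it. The RefSeq promoter windows used here give LMNA starts at the first start and 0.308 and 24.1 kb downstream of it on GRCh38.p14. These were not mapped to the sites, and other LMNA starts were not searched for. The site at 8.7 kb was called in NuMA-depleted replicates 1 and 2 and wild-type replicate 1, that at 44.5 kb in 4 libraries and that at 63.8 kb, downstream of the gene, in NuMA-depleted replicate 2 alone.

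LMNB1, a B-type lamin gene, had 2 sites next to each other at its start that all 6 libraries called. The first, on chromosome 5 at 126112212 to 126113519, had folds of 7.64, 6.65 and 5.34 in the NuMA-depleted and 6.29, 5.76 and 4.86 in the wild-type libraries, and percentiles among the shared regions of 65.1, 58.4 and 43.7 against 61.9, 30.5 and 16.4, which overlap. Its rank difference was 0.54 (SE 0.413, adjusted p = 0.703 by limma), and it was 0.24 without wild-type replicate 3 and 0.87 without wild-type replicate 1. The second, at 126113725 to 126114309, went the other way, with folds of 4.55, 4.43 and 5.53 against 5.38, 6.26 and 6.86. Its percentiles were 6.76, 8.53 and 48.7 against 37.6, 41.7 and 62.5, and NuMA-depleted replicate 3 stood above wild-type replicates 1 and 2. The difference of -0.90 (SE 0.427) had an unadjusted p of 0.0390 and an adjusted p of 0.440 by limma and did not pass. Whether the 2 neighbouring sites differ from each other in their response was not tested. The site 32.6 kb inside the gene rested on 9 to 17 fragments in the libraries that called it.

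LMNB2, the other B-type lamin gene, had a 5′ end site that only NuMA-depleted replicates 1 and 2 called. It lay on chromosome 19 at 2457001 to 2457330, was 330 bp wide, and its summits lay at -0.055 and -0.074 kb from the 5′ end of the interval, 19 bp apart. Its fold was 5.45 in NuMA-depleted replicate 1, on 19 fragments, and 7.62 in NuMA-depleted replicate 2, on 35 fragments, which placed it at percentiles 28 and 68.1 of their lists by −log10 q. NuMA-depleted replicate 3 did not call it, and neither did the 3 wild-type libraries. By relative depth the wild-type libraries (0.762 to 0.975) were shallower than the 2 that called it (1.07 and 1.21), while NuMA-depleted replicate 3 (1.11) was deeper than NuMA-depleted replicate 1, and the part of depth was not tested. Over the genome, 3.94% of sites were called in these 2 libraries alone. The promoter shown above with an ETS motif and a GC box belongs to this gene. The window's strongest site instead lay over the 3′ end of LMNB2, at 2426692 to 2428051, where all 6 libraries had folds of 6.47, 7.39 and 6.92 (NuMA-depleted) and 5.42, 8.71 and 5.86 (wild-type). TIMM13, a mitochondrial import gene, adjoins that end. Its rank did not separate the groups (difference 0.05, SE 0.419, adjusted p = 0.988 by limma). A site 5.5 kb upstream was called in all 6 libraries with folds from 4.38 to 5.44 and stood at percentiles 0.738 to 24.0 of the shared regions.

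LBR, whose product ties heterochromatin to the lamina and is also a sterol reductase, had a broad 5′ end site of 1624 bp on chromosome 1 at 225614780 to 225616403. Its folds were 6.39 and 5.64 in NuMA-depleted replicates 1 and 2 and 6.87, 7.60 and 5.22 in the wild-type libraries. The values of the 2 groups overlapped, and NuMA-depleted replicate 3 had no peak in the whole window. The second site, 9.9 kb upstream, was weak and called in NuMA-depleted replicate 2 and wild-type replicate 1 on 11 and 13 fragments. The LBR promoter printed above has the lowest GC content of the 5 and was not laid over the LBR sites.

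CTCF, the insulator protein that halts cohesin, had 2 sites, both called in all 6 libraries. The 5′ end site, on chromosome 16 at 67595568 to 67596417, had folds of 9.61, 7.38 and 4.93 in the NuMA-depleted and 9.16, 8.58 and 8.57 in the wild-type libraries, on 49, 47 and 19 against 45, 39 and 39 fragments. NuMA-depleted replicate 3 was the lowest and NuMA-depleted replicate 1 the highest of the 6, so the groups overlapped in fold. In rank the percentiles were 84.6, 48.3 and 23.3 against 89.5, 65.5 and 79.9, and the difference of -0.75 (SE 0.411) had an adjusted p of 0.533 by limma. Without NuMA-depleted replicate 3 the difference was -0.30, and without NuMA-depleted replicate 1 it was -1.21. The site 5.9 kb upstream had 9 to 16 fragments and ranked at percentiles 0.406 to 5.81 of the shared regions, near their lower end in every library.

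RAD21, the ring-closing subunit of cohesin, had the most even 5′ end site of the 10 genes by range of folds among those called in all 6 libraries. It lay on chromosome 8 at 117886413 to 117887305, with folds of 8.03, 8.46 and 7.68 in the NuMA-depleted and 8.54, 8.68 and 7.93 in the wild-type libraries. The weakest −log10 q was 14.5, the highest among the 5′ end sites called in all 6. Its rank difference was -0.07 (SE 0.400, 95% confidence interval -0.86 to 0.73, adjusted p = 0.983 by limma), an interval that leaves room for a shift in either direction. The second site, 23.1 kb inside the gene, was called in all but NuMA-depleted replicate 3, with a fold of 8.23 in wild-type replicate 2 and 4.99 to 5.83 in the other 4 libraries.

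SAFB, which binds scaffold attachment DNA and RNA, had a single site, at its 5′ end on chromosome 19 at 5622566 to 5623341. The neighbouring gene SAFB2 adjoins this end. Folds were 8.93, 8.62 and 5.48 in the NuMA-depleted and 7.77, 10.4 and 9.03 in the wild-type libraries, and the lowest again belonged to NuMA-depleted replicate 3. Summits in the 6 libraries lay within 79 bp. The rank difference was -0.22 (SE 0.404, adjusted p = 0.915 by limma).

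HNRNPU, an RNA-binding protein that also contacts chromatin, had 2 sites, both called in all 6 libraries, on chromosome 1 at 245027395 to 245028124 (the 5′ end) and at 245026020 to 245026683. The first had folds of 8.19, 6.90 and 4.53 in the NuMA-depleted and 6.58, 6.48 and 6.41 in the wild-type libraries. The wild-type libraries lay close together, with NuMA-depleted libraries on both sides of them (rank difference 0.11, SE 0.420, adjusted p = 0.967 by limma). The second site, 1.6 kb inside the gene, had folds of 3.82, 5.31 and 4.32 against 4.57, 5.82 and 6.68, with a rank difference of -0.72 (SE 0.476, adjusted p = 0.638 by limma).

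MATR3, an RNA-binding protein of the inner nuclear matrix, had 7 sites, of which 1 was called in all 6 libraries. It lay 20.7 kb inside the interval, on chromosome 5 at 138629187 to 138630268, with folds of 6.09, 7.31 and 5.66 in the NuMA-depleted and 7.23, 6.11 and 7.02 in the wild-type libraries. Its summits spread over 552 bp, more than at any of the other sites called in all 6 libraries (rank difference -0.12, SE 0.427, adjusted p = 0.966 by limma). RefSeq lists a second MATR3 start 19.6 kb downstream of the first on GRCh38.p14. The 5′ end site, at 138609241 to 138609968, had folds of 7.04 and 5.22 in NuMA-depleted replicates 1 and 2 and 5.25, 6.88 and 4.69 in the wild-type libraries. A site 37.8 kb inside the gene was the reverse of the common pattern: NuMA-depleted replicate 3 called it and wild-type replicate 1 did not. Its folds were 7.37, 7.40 and 7.29 in NuMA-depleted replicates 1, 2 and 3 and 7.02 and 5.54 in wild-type replicates 2 and 3. The remaining 4 sites were called in 1 or 2 libraries on 7 to 13 fragments, and the highest stood at percentile 4.14 of its list.

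SATB1, a genome organiser best known in T cells and reported in colon cancer, had the weakest 5′ end site. It lay on chromosome 3 at 18466212 to 18467585, with folds of 4.24 and 4.69 in NuMA-depleted replicates 1 and 2 and 3.94, 4.80 and 5.11 in the wild-type libraries, on 11 to 20 fragments. It stood between percentiles 4.28 and 20.2 of the lists that called it, and its summits spread over 901 bp. NuMA-depleted replicate 3 had no peak in the window. The second site, 1.7 kb inside the gene, was called in NuMA-depleted replicate 1 alone. RefSeq lists 4 SATB1 starts on GRCh38.p14, of which 3 lie 13.4 to 20.3 kb upstream of the fourth, so starts may lie beyond the 10 kb added here. With 25 kb added on both sides the SATB1 window held the same number of sites, 2.

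**Figure D2:**
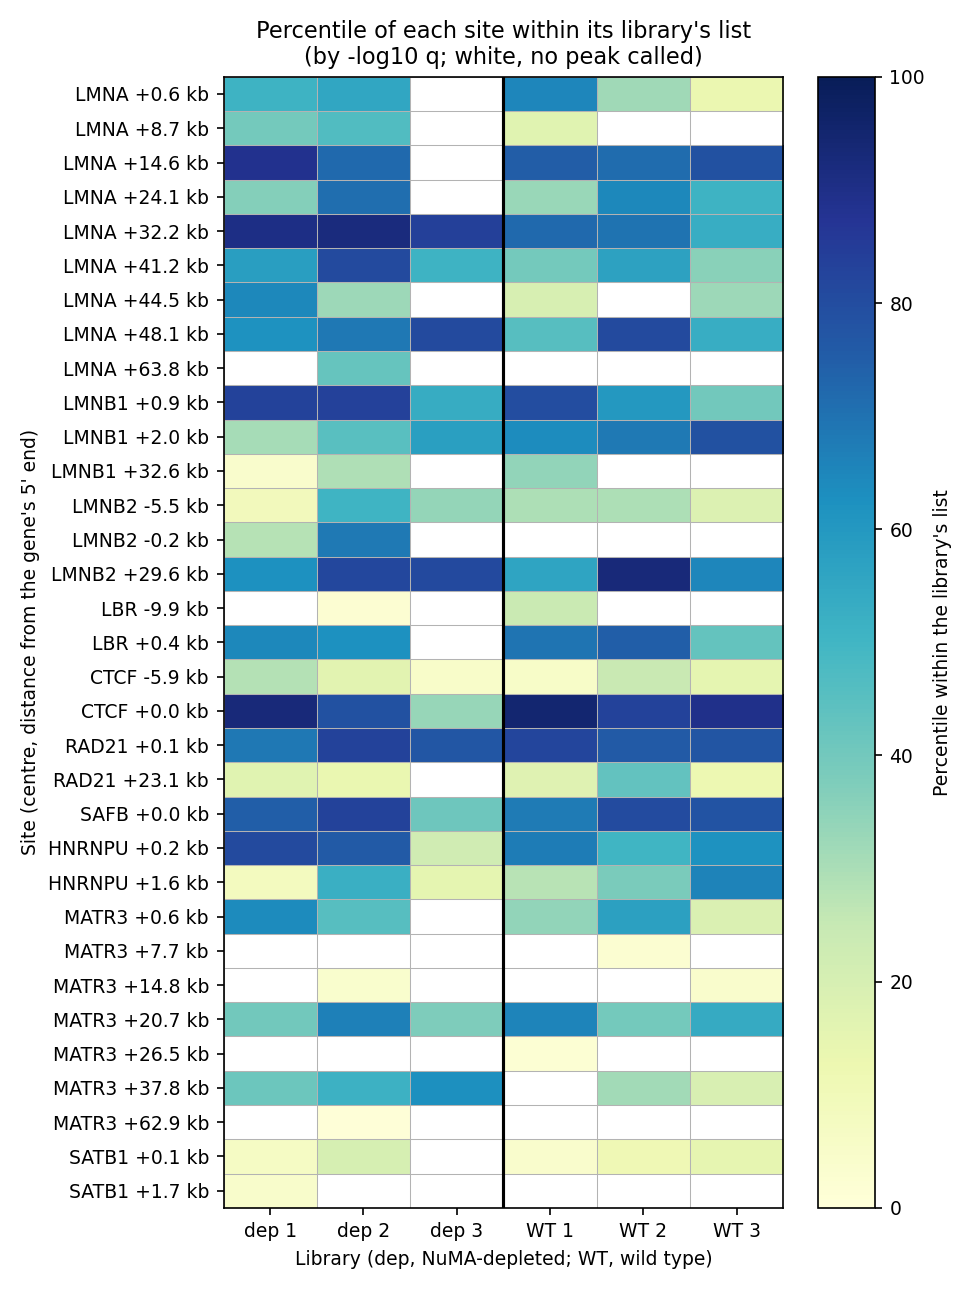
Percentile of each of the 33 sites within its library's list by −log10 q (colour), with libraries as columns (dep, NuMA-depleted; WT, wild type) and sites as rows named by gene and distance of the site's centre from the 5′ end in kb. White cells are sites with no peak in that library, and NuMA-depleted replicate 3 has 18 of them.

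The rank fit held 14 of the 33 sites. None passed an adjusted p of 0.05 by limma, where 0.323% of the 17009 regions did (0.265% higher and 0.0588% lower in the NuMA-depleted libraries), and 2 of the 14 had an unadjusted p under 0.05, where 10.4% of regions did. Percentiles of the groups did not overlap at 2 of the 14 sites, both in LMNA and both higher in the NuMA-depleted libraries, and 7.61% of regions had that pattern. None of the 14 had the opposite pattern, found in 7.11% of regions. Differences were positive at 8 and negative at 6 of the 14 sites. Their median was 0.03, and that of all regions in the fit was -0.02. The 19 sites that at least 1 library missed are not covered by this fit.

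**Figure D3:**
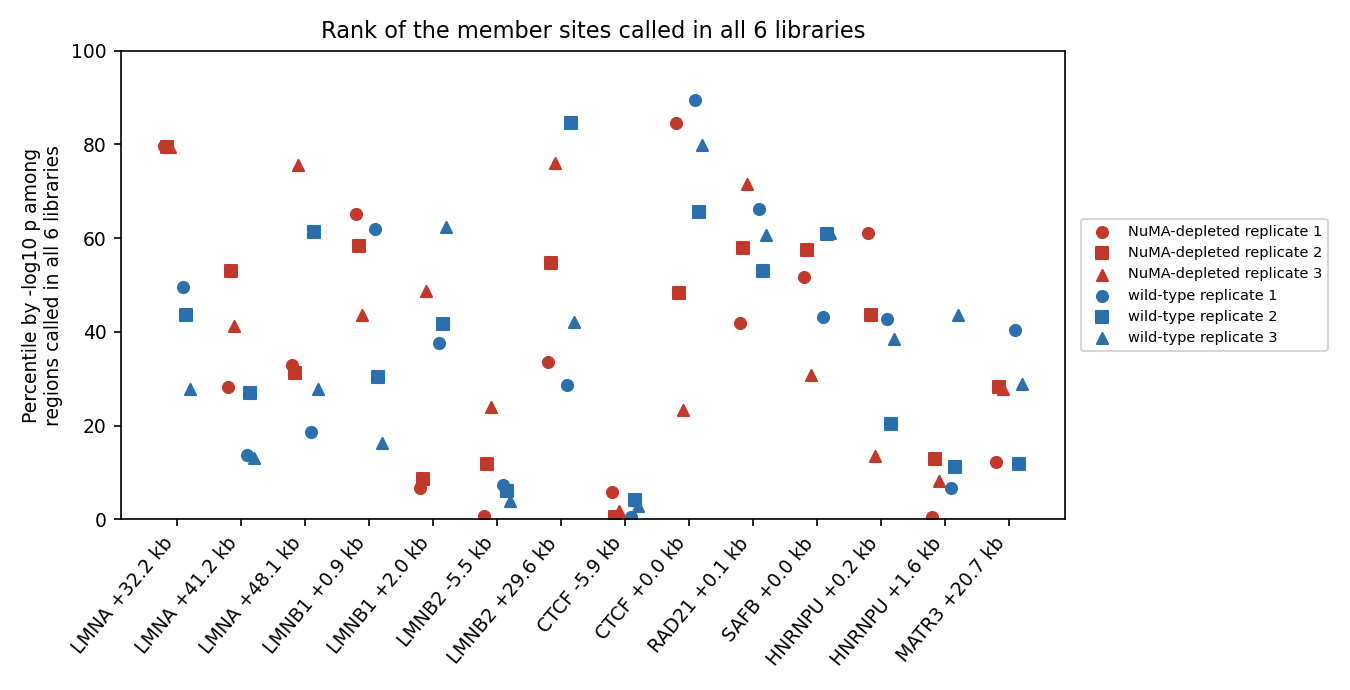
Percentile of the 14 sites called in all 6 libraries, by −log10 p among the 17009 regions called in all 6 (vertical axis), for each library (red, NuMA-depleted; blue, wild type; the symbol is the replicate). The LMNA site at 32.2 kb has 3 NuMA-depleted values near 79.5 above wild-type values of 27.8 to 49.5, and the groups also do not overlap at the LMNA site at 41.2 kb.

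The length under peaks in each window described the same loci without merging. LMNA had the most in every library except NuMA-depleted replicate 3, where MATR3 had 1425 bp, with NuMA-depleted replicates 1, 2 and 3 at 4173, 5169 and 1405 bp and wild-type replicates 1, 2 and 3 at 3789, 3394 and 3480 bp. Group means were 3582 ± 1950 and 3554 ± 208 bp (SD, n = 3 each), so the groups differed by far less than the spread of the NuMA-depleted libraries. LMNB2 had 2326, 3003 and 822 bp against 1778, 1749 and 1740 bp. In both genes the wild-type libraries lay between NuMA-depleted replicate 3 and the other 2 NuMA-depleted libraries.

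The groups overlapped in all 10 genes. LMNB1 had means of 1452 ± 548 and 984 ± 252 bp (SD, n = 3 each), and RAD21 had 1067 ± 423 and 1405 ± 87.2 bp. CTCF had 1135 ± 645 and 851 ± 60.1 bp (SD, n = 3 each), and MATR3 2072 ± 868 and 1889 ± 356 bp. LBR had 822, 1667 and 0 bp after depletion, against 1241, 887 and 995 bp in wild-type cells. SAFB was the exception to the low values of NuMA-depleted replicate 3, with 642 bp in that library and 352 and 585 bp in replicates 1 and 2. In the other 9 genes NuMA-depleted replicate 3 had the lowest value of the NuMA-depleted libraries. The difference of the means, NuMA-depleted minus wild type, depended on which library was left out. Without NuMA-depleted replicate 3 it changed sign in LBR, from -211 to 203.5 bp, and went from 28 to 1117 bp in LMNA, from 295 to 909 bp in LMNB2, from 468 to 757 bp in LMNB1, from 284 to 535 bp in CTCF and from -338 to -99.8 bp in RAD21. Without NuMA-depleted replicate 2 it went the other way, to -765 bp in LMNA, -182 bp in LMNB2, -79.7 bp in CTCF, -310 bp in MATR3 and -24.2 bp in SATB1, each a change of sign, and to 212 bp in LMNB1, -504 bp in RAD21 and -630 bp in LBR. With equal numbers of peaks from each library LMNB1 stood at 173 bp, RAD21 at -98.7 bp and LMNB2 at -118 bp. By estimated relative depth all 3 NuMA-depleted libraries were deeper than the 3 wild-type libraries, and the part of depth in these differences was not tested.

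**Figure D4:**
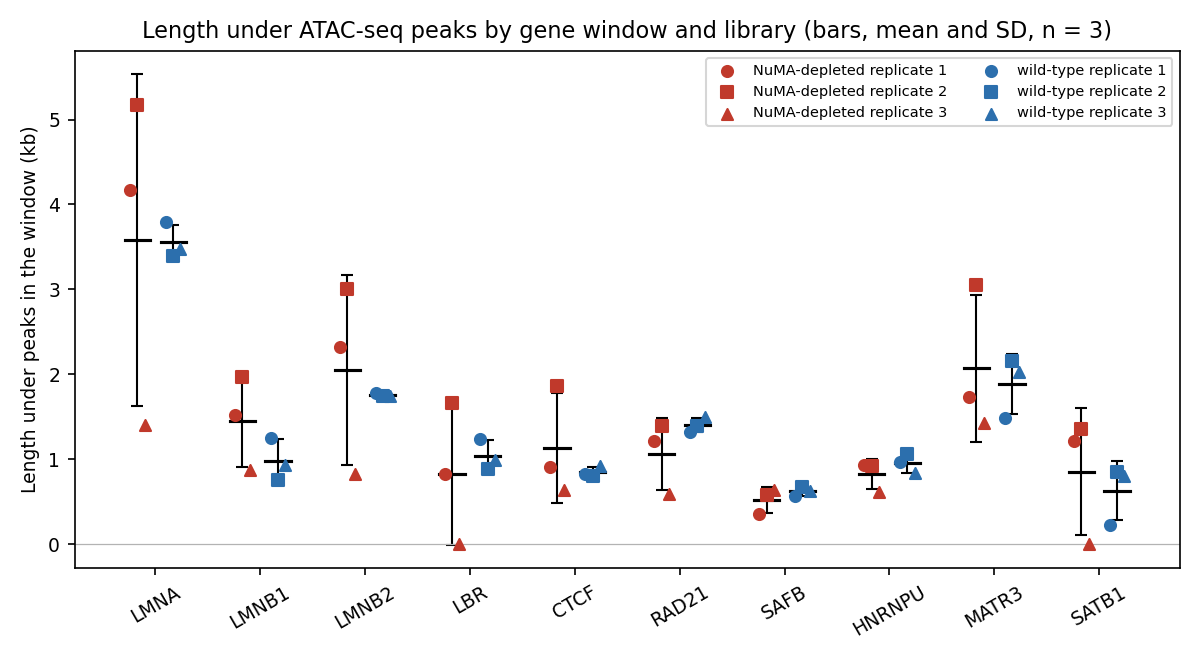
Length under ATAC-seq peaks in each gene window (vertical axis, kb) by library (red, NuMA-depleted; blue, wild type; the symbol is the replicate), with bars for the mean and SD of 3 libraries. The groups overlap in all 10 genes, and NuMA-depleted replicate 3 (red triangle) is at 0 in LBR and SATB1.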

How the data were processed

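ATAC-seq peak lists of 6 HCT116 libraries, 1 per sample, were used, grouped by the genotype label. Per the submitters' processing notes, Trim Galore, Bowtie2 2.4.1 and Picard were used on build hg19. The peak names record a macs2 folder. Caller settings, read filters and a transposase shift were not given in the sources used here. For each peak the deposited files give a fold over local background (a linear ratio), a −log10 p-value and a −log10 q-value, the summit, and a score, which follows the q-value and was not used. Fold and q are the authors' own values for a peak within its list.

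Gene intervals and members were chosen with earlier results of these data known, and so were the lists and tests. Lists were merged at an overlap of 1 bp. Fragments at each summit were recovered from fold and p under a Poisson model (whole within 0.01 on the −log10 p scale for all 146 member peaks). For regions called in all 6 libraries, ranks by −log10 p within each library were turned into normal scores and tested with limma 3.58.1 in R 4.3.3 (moderated, with trend, Benjamini-Hochberg over 17009 regions, threshold 0.05), after a check on simulated data. The simulated data gave every region and library the same scatter, so the check does not cover libraries as unequal as these. Other computation used Python 3.11.15, pandas 2.3.3 and scipy 1.17.1. The rule named every 5′ end site, the strongest site of each window by weakest −log10 q, and any site with a 3-against-0 pattern or past the threshold; other sites named were chosen after their values were seen. A list of related genes was not used, since no hg19 annotation was used here. Alternatives tried: peaks past a −log10 q of 5, lists shortened to the shortest, no added flank, summits inside the window, 500 bp around summits, other ranks, the replicate number as a block, and each library left out in turn. A flank of 25 kb was chosen after seeing the data.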

Additional observations from a re-analysis of the deposited data

How the results depend on the processing

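The count of 33 sites became 22 with equal numbers of peaks, 27 with no added flank, 28 for peaks past a −log10 q of 5 and 31 to 33 with 1 library left out, and was 52 with 25 kb added on both sides, a setting chosen after seeing the data. Sites called in every library, 14, numbered 9 with equal numbers of peaks and 14 to 21 with 1 library left out, where 21 belongs to the lists without NuMA-depleted replicate 3. Sites called in all NuMA-depleted and no wild-type libraries, 0, came to 0 to 1 with 1 library left out, and the 1 is the LMNB2 5′ end site without NuMA-depleted replicate 3. The wild-type counterpart was 0 under all settings run. Of all 17009 regions, 55 passed the rank fit. On the same regions the count was 1 with ranks by fold and 0 with untransformed percentiles (limma, 1582 with an unadjusted p under 0.05). It was 32 of the 14879 regions past a −log10 q of 5 in every library. With 1 library left out the fit held 17060 to 22131 regions, and the count was 16 to 43 (16 without NuMA-depleted replicate 2, 24 without NuMA-depleted replicate 1, 30 without wild-type replicate 2, 31 without wild-type replicate 1). With the replicate block 26 regions passed, and no member site passed under any setting. Deviations of same-numbered libraries from their group means had correlations of -0.0255, -0.0298 and -0.0163, and no library correlated best with its own number, so the numbers were not taken as pairs. Rank differences of named sites near 0 changed sign: RAD21 to 0.0894 with ranks by fold and between -0.23 and 0.13 with 1 library left out, HNRNPU (5′ end) to -0.0160 for regions past a −log10 q of 5 and between -0.19 and 0.49, LMNB2 (3′ end) between -0.27 and 0.51, SAFB between -0.36 and 0.0048, and MATR3 between -0.38 and 0.0869. The LMNA site at 32.2 kb kept its sign, between 0.89 and 1.18. The cause of these changes was not tested. Covered-length differences kept their sign under the 12 settings in LMNB1, RAD21 and HNRNPU; that of SAFB became 204 bp with 25 kb added, and the replicate block leaves each mean difference as it is. Fragments at a summit numbered 7 to 70 in these windows, and read totals are unknown, so small differences between libraries were not detectable.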
